A study of Rattus norvegicus with 5 samples.

Results

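The ON bipolar signalling cascade is the chain of proteins through which retinal ON bipolar cells answer a fall in glutamate from photoreceptors. It was followed here through 9 genes, Grm6, Trpm1, Gpr179, Gnao1, Gng13, Rgs11, Pcp2, Cabp5 and Prkca, in dissociated rat retina in early diabetes. The genes were chosen for their role in the cascade and matched by symbol among 25399 genes. The 8 members other than Rgs11 were matched, and Rgs11 was not analysed here. In bipolar cells all 8 measured members passed the limit on low values described below. Their values were unique molecular identifiers (UMIs), each standing for 1 captured RNA molecule, summed per library and cell class.

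Photoreceptors release glutamate in the dark, and ON bipolar cells receive it with the receptor encoded by Grm6. That receptor acts through a Go protein, whose alpha subunit is Gnao1 and one of whose gamma subunits is Gng13, to close the cation channel Trpm1. Light lowers glutamate, the regulators Rgs7 and Rgs11 held at the synapse by Gpr179 switch Go off, and the channel opens. Pcp2 encodes a protein that binds Go alpha subunits, Cabp5 a calcium-binding protein of bipolar cells, and Prkca the protein kinase C alpha used as a marker of rod bipolar cells. Rod bipolar cells and ON cone bipolar cells use this cascade, whereas OFF cone bipolar cells answer glutamate with ionotropic receptors such as that of Grik1.

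All rats were of the SD strain. Those of the diabetic groups had received 1 intraperitoneal injection of 45 mg/kg streptozotocin (STZ), a toxin of insulin-producing cells, and were used if their blood glucose passed 200 mg/dL. They were then kept for 2, 4 or 8 weeks on food high in fat and sugar, with 1 retinal specimen per time. The control rats (0 weeks) had been injected with citrate buffer alone. The labels give no food for control rats after the first week and no ages, so that STZ, glucose, food and age cannot be told apart. The matrix of control replicate 2 was used and that of control replicate 1 was not analysed here. Each comparison with control therefore sets 1 library against 1, with no replicate check and no p-value. Intervals are 95% intervals that cover counting error only.

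The libraries held 9742, 16128, 10717 and 7649 barcodes at 0, 2, 4 and 8 weeks. A barcode counted as a cell from 200 detected genes upward if mitochondrial transcripts made up no more than 40% of its UMIs, which left 16236100 to 27135942 UMIs per library. The limit of 40% was needed for bipolar cells, of which 64.6% to 87.8% per library lay above 20%, against 3.83% to 8.05% of rods. Bipolar cells numbered 1470, 2639, 1333 and 2076 at 0, 2, 4 and 8 weeks. Clusters were named by class markers, so marker levels describe the classes and are no separate check of the names. Among them Tmem215 averaged 214 CPM (UMI counts scaled to a common class total, the usual CPM) in bipolar cells and 5.16 CPM in rods. Lrtm1, also on the marker list, was near 0 in both. Pairs of libraries shared between 13 and 70 barcodes.

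Most of the members were bipolar genes in this tissue. Grm6, Trpm1, Gpr179, Gng13, Pcp2 and Cabp5, 6 of the 8, were higher in bipolar cells than in rods, cones, amacrine cells, Müller glia and microglia in each of the 4 libraries, as were 5.32% of 5316 genes at a mean of at least 20 CPM in bipolar cells. Capture of RNA differs between genes, so levels are compared within a gene. Grm6 stood at 134 CPM in bipolar cells of the control library, 129 at 2 weeks, 119 at 4 weeks and 148 at 8 weeks, and in no other class of these libraries above 16.9 CPM. The log2 ratio of bipolar cells to the next class was 4.38 (3.95 to 4.88) for Grm6 in control and 3.13 (2.86 to 3.42) at 8 weeks. Cabp5 was set apart as widely, by 5.38 (4.37 to 6.95) from microglia in control. Gng13 stood at 2961, 3290, 2829 and 2924 CPM in bipolar cells at 0, 2, 4 and 8 weeks, against 80.2 to 253 CPM in rods.

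Gnao1 and Prkca were the 2 members shared with other classes. Gnao1 stood at 225, 383, 183 and 207 CPM in bipolar cells at 0, 2, 4 and 8 weeks, against 196, 179, 188 and 198 CPM in amacrine cells. Bipolar cells were higher beyond counting error in control and at 2 weeks, and at 4 and 8 weeks the intervals of the log2 ratio held 0 (-0.21 to 0.13 and -0.09 to 0.22). Prkca stood at 60.1, 118, 35.7 and 94.6 CPM in bipolar cells, against 89.9, 49.8, 40.5 and 119 CPM in rods. The order of bipolar cells, pooled, and rods thus turned round at 2 weeks. At 4 weeks the interval of the ratio held 0 (-0.46 to 0.10). The pooled level also holds the mix of bipolar subclusters, described below. At the control library's mix the 2-week level of bipolar cells was 50.4 CPM, close to the 49.8 CPM of rods. In the rod bipolar-like subclusters alone Prkca stood at 204 to 454 CPM, above rods in each library.

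**Figure D1:**
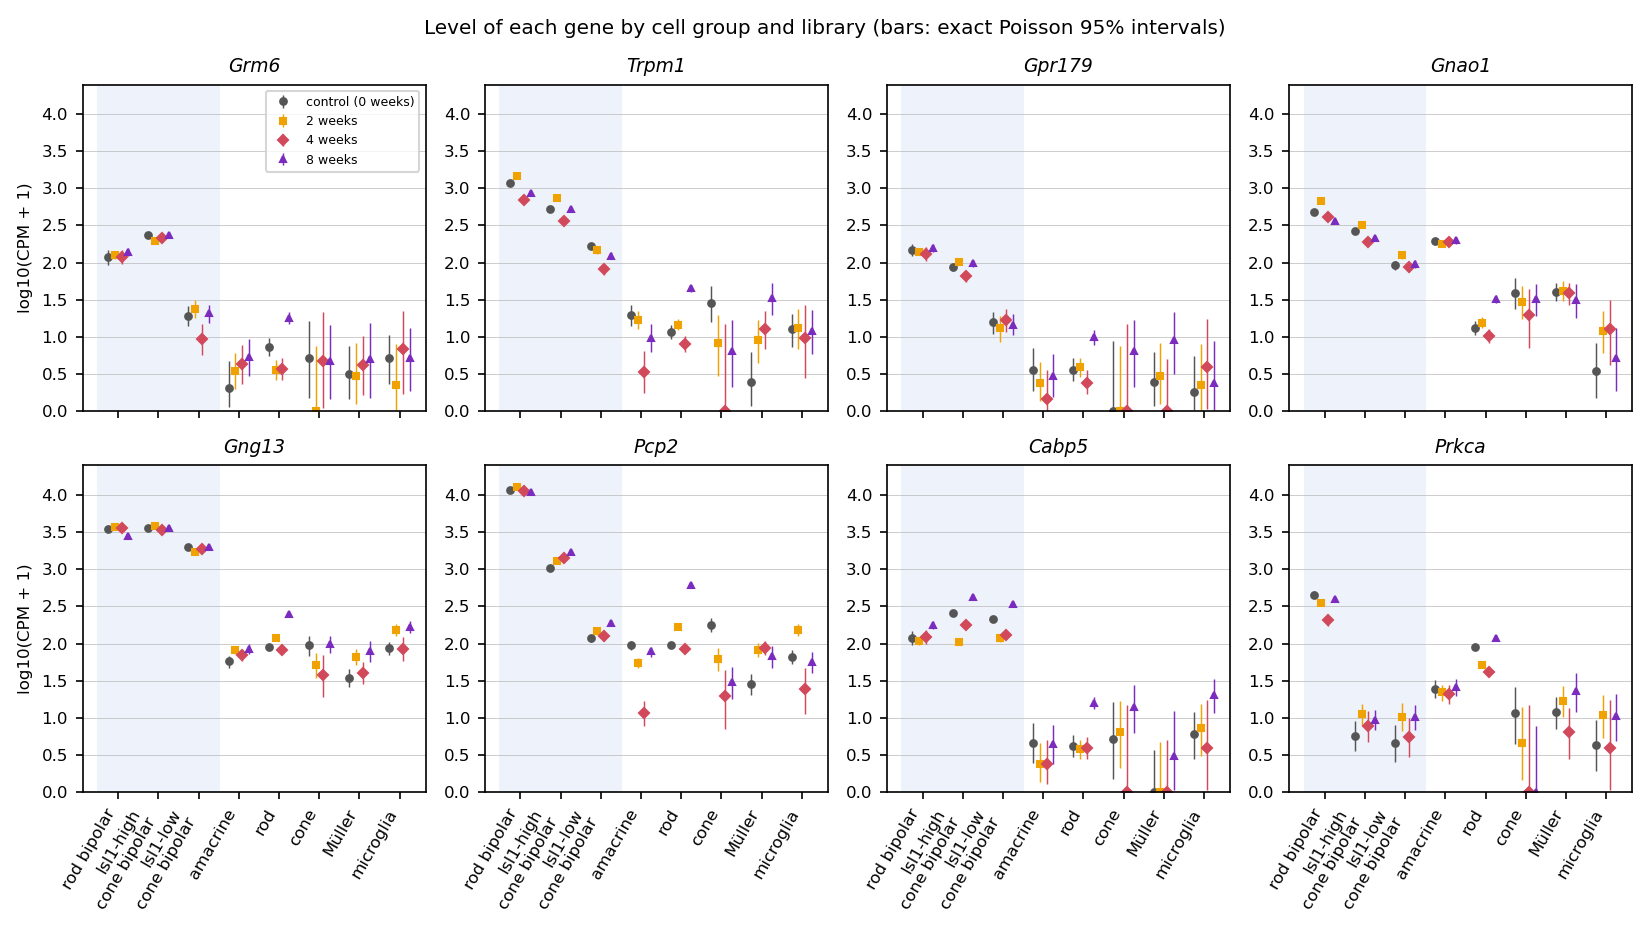
Level of each measured member in 3 groups of bipolar cells (shaded) and 5 other classes, as log10(CPM + 1), with 1 symbol per library and exact Poisson 95% intervals. Prkca stands between 204 and 454 CPM in rod bipolar-like cells and between 40.5 and 119 CPM in rods, and Gnao1 in amacrine cells lies between 179 and 198 CPM.

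The promoters of Gnao1 and Prkca, the members shared with other classes, were richer in CG pairs than those of the other members with a window. The windows below are the 250 bases before the annotated start in RefSeq on GRCr8, on the gene's strand, with CG pairs in capitals, and the 4 shown were picked for that contrast after the levels were known. Counts were made on another build, so no coordinate is carried over. RefSeq gave a window for 6 of the 9 members, and for Gpr179, Cabp5 and Rgs11 none is shown. Gnao1 (chr19:11198438-11198687, - strand) and Prkca (chr10:93787328-93787577, - strand) come first, and Trpm1 (chr1:127130436-127130685, + strand) and Pcp2 (chr12:6481308-6481557, - strand), both bipolar genes here, follow.
Gnao1: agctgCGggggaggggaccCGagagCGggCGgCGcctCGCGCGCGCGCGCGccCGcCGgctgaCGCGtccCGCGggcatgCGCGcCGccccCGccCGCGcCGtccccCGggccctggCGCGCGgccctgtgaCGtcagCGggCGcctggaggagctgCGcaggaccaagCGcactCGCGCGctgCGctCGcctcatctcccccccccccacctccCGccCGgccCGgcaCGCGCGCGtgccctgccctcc
Prkca: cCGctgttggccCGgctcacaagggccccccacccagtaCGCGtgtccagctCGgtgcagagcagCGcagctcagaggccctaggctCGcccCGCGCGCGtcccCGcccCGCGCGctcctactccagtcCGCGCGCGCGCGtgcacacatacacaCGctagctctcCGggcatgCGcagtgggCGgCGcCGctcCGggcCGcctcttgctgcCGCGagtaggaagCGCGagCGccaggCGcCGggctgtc
Trpm1: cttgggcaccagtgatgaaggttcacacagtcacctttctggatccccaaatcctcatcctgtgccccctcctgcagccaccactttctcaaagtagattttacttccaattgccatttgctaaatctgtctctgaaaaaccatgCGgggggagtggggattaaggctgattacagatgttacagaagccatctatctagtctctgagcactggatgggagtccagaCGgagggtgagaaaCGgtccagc
Pcp2: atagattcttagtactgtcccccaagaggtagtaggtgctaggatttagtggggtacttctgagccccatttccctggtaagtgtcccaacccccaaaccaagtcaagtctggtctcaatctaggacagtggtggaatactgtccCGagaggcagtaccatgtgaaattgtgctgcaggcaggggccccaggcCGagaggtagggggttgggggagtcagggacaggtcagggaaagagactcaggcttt
The Gnao1 window held 46 CG pairs, as many as 0.308% of all 33469 windows hold or more, and the Prkca window 36, reached by 2.25%. The Trpm1 window held 3 CG pairs and the Pcp2 window 2, below the median of 5 over all windows. Grm6 and Gng13, also highest in bipolar cells, held 5 and 6. The letters TAATCC, the core to which the homeodomain factors Otx2 and Crx bind, were searched on both strands. They stood in 1 of the 6 windows, that of Trpm1, where they read ggatta from base 158, and in 6.34% of all windows. TAATTA, a homeodomain core searched likewise, stood in 0 of the 6 and in 4.86% of all windows.

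Bipolar cells were clustered again without the members and their postsynaptic partners among the genes used, which gave 17 subclusters. Subclusters 3 and 5 carried the rod bipolar markers and are called rod bipolar-like. Car8, one of those markers, averaged 655 CPM in them and 14.3 CPM or less in the other bipolar groups. The remaining subclusters are called cone bipolar and were divided by Isl1, a transcription factor that ON bipolar cells keep, at 100 CPM. That limit was set after the values were seen. Of these 15 subclusters, 3 reached the marker score of ON and 4 that of OFF cone bipolar cells, and 8 (1, 2, 6, 8, 10, 12, 13 and 14) reached neither clearly, so that cone bipolar here means bipolar cells outside subclusters 3 and 5. Isl1 ranged from 151 to 913 CPM in the 9 Isl1-high cone bipolar subclusters and from 4.4 to 19.3 CPM in the 6 Isl1-low ones. Grik1 averaged 161 CPM in Isl1-low cells, against 2.23 CPM in Isl1-high cells.

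The receptor and channel followed the division by Isl1. Grm6 stood at 233, 191, 213 and 237 CPM in Isl1-high cells at 0, 2, 4 and 8 weeks, against 18.2, 22.9, 8.40 and 19.6 CPM in Isl1-low cells. It was lower in rod bipolar-like than in Isl1-high cells in each of the 4 libraries, with log2 ratios of -0.99 (-1.35 to -0.67), -0.60, -0.83 and -0.78. Trpm1 had the opposite order: 1195, 1476, 688 and 857 CPM in rod bipolar-like cells, against 521, 739, 361 and 520 CPM in Isl1-high cells. Trpm1 in Isl1-low cells, at 166, 145, 80.6 and 123 CPM, lay below both groups and above the 6.95 to 44.3 CPM of rods. Gpr179, the synaptic anchor, averaged 143 CPM in rod bipolar-like cells, 87.4 CPM in Isl1-high cells and 14.0 CPM in Isl1-low cells. Over all bipolar cells of the 4 libraries summed, Isl1-high and rod bipolar-like cells together held 95.8% of Grm6, 92.3% of Trpm1 and 94.2% of Gpr179 UMIs. For comparison, the same cells held 79.8% of Gng13 UMIs and 68.0% of Cabp5 UMIs.

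The G protein genes were less divided. Gnao1 averaged 481 CPM in rod bipolar-like cells, 246 CPM in Isl1-high cells and 99.3 CPM in Isl1-low cells. Gng13 averaged 3377, 3640 and 1881 CPM in the same groups. Its log2 ratio of Isl1-high to Isl1-low cells lay between 0.87 and 1.17 over the libraries, against 3.05 to 4.62 for Grm6. Pcp2 and Prkca marked rod bipolar-like cells. Pcp2 reached 10866 to 12692 CPM there, against 1050 to 1691 CPM in Isl1-high and 116 to 186 CPM in Isl1-low cells, and 79.1% of bipolar Pcp2 UMIs were in rod bipolar-like cells. Prkca stood at 454, 347, 204 and 397 CPM in rod bipolar-like cells, against 4.72 to 10.1 CPM in Isl1-high cells, and 93.2% of bipolar Prkca UMIs were in rod bipolar-like cells.

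Single subclusters departed from these averages. Pcp2 was also high in 3 Isl1-high subclusters, at 5559 CPM in subcluster 6, 4232 CPM in subcluster 10 and 8491 CPM in subcluster 14. Prkca, at 53.4 and 56.0 CPM, was above 12.4 CPM outside rod bipolar-like cells in subclusters 10 and 14 only. Subcluster 10 held Grm6 at 127 CPM with Trpm1 at 70.7 CPM, the lowest Trpm1 level of the Isl1-high subclusters. Among Isl1-low subclusters, number 7 held Trpm1 at 288 CPM with Grm6 at 4.4 CPM, and numbers 8 and 9 held Grm6 at 56.7 and 59.6 CPM with Trpm1 at 7.2 and 49.5 CPM. Cabp5 did not follow Isl1: it stood at 234 CPM or more in 5 Isl1-high subclusters and in 4 Isl1-low ones, and lay at or under 6.0 CPM in subclusters 2, 13, 7 and 8.

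**Figure D2:**
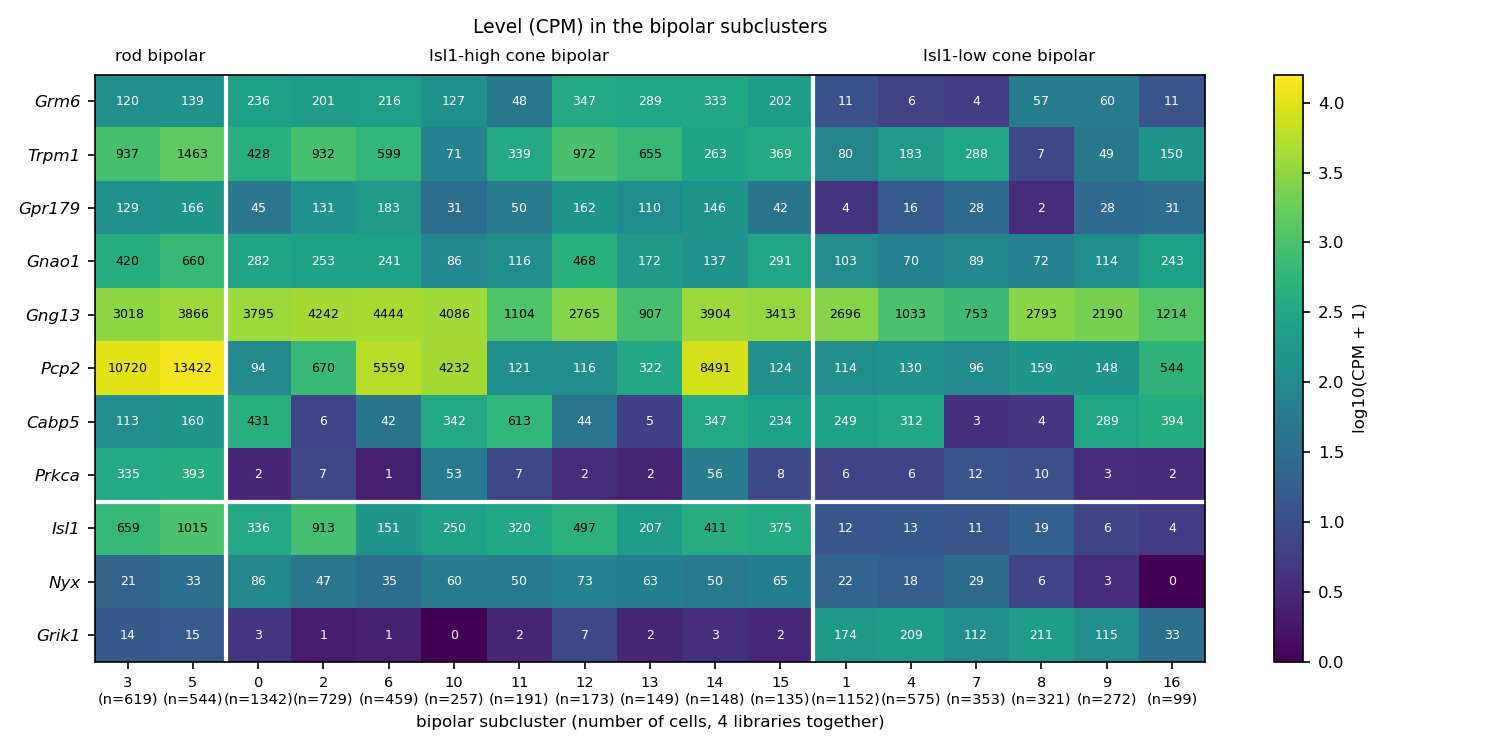
Level (CPM, coloured as log10(CPM + 1)) of the measured members and of Isl1, Nyx and Grik1 in the 17 bipolar subclusters, the 4 libraries summed, with the number of cells in brackets. Grm6 lies between 48.5 and 347 CPM in Isl1-high subclusters and between 4.4 and 59.6 CPM in Isl1-low ones, Prkca is highest in subclusters 3 and 5, and Cabp5 runs from 2.9 CPM in subcluster 7 to 613 CPM in subcluster 11.

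The same groups stood out cell by cell, with cells of at least 1000 UMIs thinned to 1000 and shallower cells left out. That left out 2, 13, 10 and 4 rod bipolar-like cells at 0, 2, 4 and 8 weeks, and 3309, 5070, 4436 and 1486 rods, so that 2287, 3327, 2353 and 1791 rods, the deeper ones, were counted. A rod bipolar-like cell held a UMI of 3.90, 3.87, 3.27 and 3.68 members on average at 0, 2, 4 and 8 weeks. An Isl1-low cell held 1.07 to 1.37 members and a rod 0.16 to 0.42. Pcp2 was found in 99.1% to 100% of thinned rod bipolar-like cells and in 5.91% to 14.5% of rods, taken as a class that should lack it. Trpm1 was found in 55.4% to 72.5% of rod bipolar-like cells, against 0.68% to 1.34% of rods. The median depth before thinning was 3865 to 6336 UMIs in rod bipolar-like cells and 857 to 1096 UMIs in rods. Without thinning Trpm1 was found in 90.2% to 100% of rod bipolar-like cells and 0.53% to 3.42% of rods.

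The first question of the design was how the cascade stood in diabetic bipolar cells as a whole. At 2 weeks Pcp2 was higher and Cabp5 lower than in control by over 2-fold. At 4 and 8 weeks none of the 8 was past 2-fold. The limit of 2-fold was passed by 3.03% of the 5316 genes used at 2 weeks, 1.79% at 4 weeks and 0.489% at 8 weeks, where a gene was used if its mean reached 20 CPM and the pair of libraries held 30 UMIs. The median log2 ratio of the members was 0.62, -0.28 and 0.24 at 2, 4 and 8 weeks, against 0.12, 0.07 and 0.03 over all genes used. The 3 comparisons share 1 control library. With no mitochondrial limit the 2-week log2 ratios were 0.98 for Pcp2 and -0.88 for Cabp5, both short of 2-fold, and Prkca at 4 weeks was past it at -1.01.

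Pcp2 stood at 2007 CPM in bipolar cells of the control library, 4679 at 2 weeks, 2397 at 4 weeks and 3257 at 8 weeks. The 3 diabetic libraries were above control, and the log2 ratio was 1.22 (1.19 to 1.25) at 2 weeks, 0.26 (0.22 to 0.29) at 4 weeks and 0.70 (0.67 to 0.73) at 8 weeks. Prkca was also highest at 2 weeks, at 118 CPM against 60.1 CPM in control, a log2 ratio of 0.98 (0.80 to 1.16). Trpm1 stood at 465, 830, 301 and 472 CPM at 0, 2, 4 and 8 weeks, above control at 2 weeks, by 0.84 (0.77 to 0.90), and below it at 4 weeks, by -0.63 (-0.72 to -0.53). Gnao1 was likewise above control at 2 weeks and below it at 4 weeks, with log2 ratios of 0.77 and -0.30, and lay below it at 8 weeks, at -0.12 (-0.22 to -0.01).

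Grm6 and Gng13 differed little. The log2 ratios of Grm6 were -0.06 (-0.19 to 0.08), -0.18 (-0.34 to -0.02) and 0.14 (0.01 to 0.28) at 2, 4 and 8 weeks. Those of Gng13 were 0.15 (0.12 to 0.18), -0.07 (-0.10 to -0.03) and -0.02 (-0.05 to 0.01). Gpr179 stood at 66.0, 91.3, 55.2 and 84.0 CPM at 0, 2, 4 and 8 weeks, with log2 ratios of 0.47, -0.26 and 0.35. Cabp5 stood at 109 CPM at 2 weeks, 150 at 4 weeks and 339 at 8 weeks, against 223 CPM in control. Its log2 ratios were -1.03 (-1.16 to -0.91), -0.57 (-0.71 to -0.44) and 0.60 (0.51 to 0.70). It went against most members at 2 weeks only, when 6 of the 8 lay above 0. At 4 weeks 1 of the 8 lay above 0 and at 8 weeks 6 did.

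The make-up of the bipolar class differed between libraries. Rod bipolar-like cells were 7.82% of bipolar cells in control, 24.5% at 2 weeks, 9.15% at 4 weeks and 13.5% at 8 weeks (exact interval 6.50% to 9.32% in control and 22.9% to 26.2% at 2 weeks). The mitochondrial limit bears on these shares: 45.5%, 11.4%, 26.9% and 17.4% of rod bipolar-like barcodes lay above 40% mitochondrial UMIs and were set aside. When levels were averaged over the 17 subclusters at the control library's shares of UMIs, the log2 ratio of Pcp2 was 0.09, -0.01 and 0.09 at 2, 4 and 8 weeks, and that of Prkca -0.25, -1.05 and -0.04. Trpm1 came to 0.20, -0.60 and -0.16, and Gpr179 to -0.16, -0.28 and 0.08. Cabp5 came to -0.64, -0.46 and 0.73. At a fixed mix 0 of 8 members were thus past 2-fold at 2 weeks, 1 (Prkca, lower) at 4 weeks and 0 at 8 weeks, beside 1.88%, 1.73% and 0.263% of all genes used. Averaging was an alternative added after the data were seen.

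**Figure D3:**
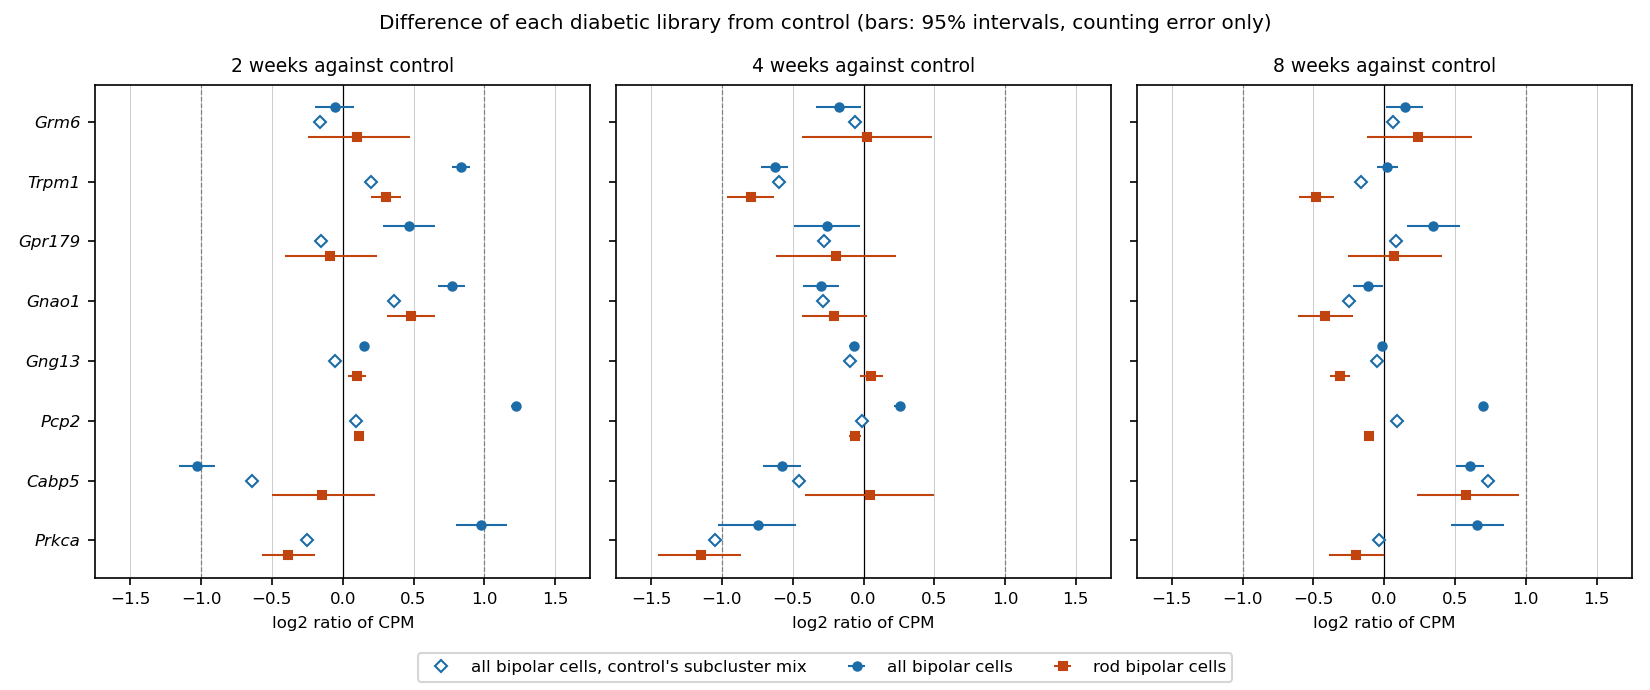
Log2 ratio of each diabetic library to control for the measured members in all bipolar cells, in rod bipolar-like cells, and in all bipolar cells averaged at the control library's subcluster mix, with 95% intervals for the first pair. Dashed lines mark 2-fold. Pcp2 in all bipolar cells at 2 weeks lies at 1.22 and at 0.09 when averaged at the control mix, and Prkca in rod bipolar-like cells at 4 weeks lies at -1.15.

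Within rod bipolar-like cells, 115, 646, 122 and 280 of them at 0, 2, 4 and 8 weeks, the count past 2-fold was 0 of 8 at 2 weeks, 1 at 4 weeks and 0 at 8 weeks, set beside 5.00%, 6.65% and 4.22% of all genes used. The interval excluded 0 for 5 of the 8 members at 2 weeks, 3 at 4 weeks and 6 at 8 weeks. The share of all genes used with such an interval is not given here, so these counts are not read as a result on the members. The median of the members was 0.10, -0.13 and -0.15, against 0.11, 0.12 and 0.10 over all genes used. Pcp2 differed from control by 0.12, -0.06 and -0.11 on the log2 scale. Its sign at 4 and 8 weeks turned without subcluster 3, which leaves subcluster 5 alone, to 0.14 and 0.30. With no mitochondrial limit it turned as well, to 0.08 and 0.03. Rod genes summed to 21392 CPM in subcluster 3 and 3577 CPM in subcluster 5. Grm6 lay at 126, 119 and 138 CPM in the diabetic libraries, against 117 CPM in control, and the 3 intervals held 0.

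Prkca was the member past 2-fold. It stood at 454 CPM in rod bipolar-like cells of the control library, 347 at 2 weeks, 204 at 4 weeks and 397 at 8 weeks. The 3 diabetic libraries were below control, by log2 ratios of -0.39 (-0.57 to -0.20), -1.15 (-1.45 to -0.86) and -0.20 (-0.39 to -0.00). The 8-week direction turned with no mitochondrial limit, to 0.09, and with free RNA subtracted, to 0.60. In subcluster 3 alone Prkca was lower at 4 weeks by -0.92 (-1.27 to -0.57), at 113 UMIs in 85 cells against 176 UMIs in 65 control cells, which is not past 2-fold. Subcluster 5 held 37 cells at 4 weeks and gave no such value. The share of thinned rod bipolar-like cells with a Prkca UMI was 41.6%, 30.3%, 15.2% and 34.8% at 0, 2, 4 and 8 weeks, against 0.86%, 1.78%, 1.02% and 0.48% of Isl1-high cells. The 4-week library was thus lowest in sums and in cells. Rod genes summed to 9017, 13230, 15540 and 16899 CPM in rod bipolar-like cells, and their part in the result was not tested.

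In Isl1-high cone bipolar cells 7 members were used, without Prkca, and those past 2-fold were 1 at 2 weeks (Cabp5, lower), 0 at 4 weeks and 0 at 8 weeks, beside 3.15%, 2.27% and 0.427% of all genes used. In Isl1-low cells 5 members were used, and those past 2-fold were 0 at 2 weeks, 1 at 4 weeks (Trpm1, lower) and 0 at 8 weeks, beside 3.09%, 2.47% and 0.540%. Pcp2 in Isl1-high cells, at 1290, 1419 and 1691 CPM in the diabetic libraries, against 1050 CPM in control, had log2 ratios of 0.30, 0.43 and 0.69, which at the control library's subcluster mix came to 0.09, -0.01 and 0.34. At that mix neither call was past 2-fold: Cabp5 in Isl1-high cells at 2 weeks came to -0.67 in place of -1.29, and Trpm1 in Isl1-low cells at 4 weeks to -0.89 in place of -1.04.

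Trpm1 was lower at 4 weeks across bipolar subclusters. In the 7 subclusters with at least 50 cells in both libraries and 30 Trpm1 UMIs in the pair, the log2 ratio lay below 0 in each, between -1.48 and -0.35 with a median of -0.64, and 6 of the 7 intervals lay below 0. Of 2166 genes with values in the same subclusters, 8.49% were lower in each of them. In rod bipolar-like cells Trpm1 stood at 688 CPM at 4 weeks against 1195 CPM in control, a log2 ratio of -0.80 (-0.96 to -0.63), and in Isl1-high cells at 361 against 521 CPM, -0.53 (-0.66 to -0.40). In Isl1-low cells it stood at 80.6 against 166 CPM, -1.04 (-1.33 to -0.76). At 2 weeks 6 of 8 subclusters lay above 0, beside 55.2% of genes higher in at least as many, and at 8 weeks 8 of 9 lay below 0, 3 of them with their interval, beside 5.40% lower in at least as many. Rod bipolar-like cells were at 857 CPM at 8 weeks, a log2 ratio of -0.48 (-0.60 to -0.36), and Isl1-high cells at 520 CPM, -0.00 (-0.10 to 0.10). With free RNA subtracted, the 8-week ratio of rod bipolar-like cells was 0.26.

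Cabp5 was higher at 8 weeks across subclusters. The log2 ratio lay above 0 in each of 7 subclusters, between 0.41 and 1.11 with a median of 0.72, and 5 of the 7 intervals lay above 0. Of 2107 genes with values in the same subclusters, 3.99% were higher in each of them. In subcluster 0, the largest, Cabp5 stood at 626 CPM at 8 weeks against 380 CPM in control. At 2 weeks 6 of 7 subclusters lay below 0, beside 9.74% of genes lower in at least as many, and at 4 weeks 4 of 5, beside 24.2%. The exception at 2 weeks was subcluster 6, at 1.20 with 26 UMIs against 8 in control. Isl1-high cells at 2 weeks were past 2-fold, at 105 CPM against 258 CPM in control and a log2 ratio of -1.29 (-1.48 to -1.10), and at the control library's subcluster mix were not, at -0.67. The pooled 8-week value of Cabp5 depended on the mitochondrial limit: among bipolar cells under 20%, it stood at 361 CPM against 365 CPM in control. The make-up at that limit was unlike too, with Isl1-high cells at 46.2% of bipolar cells at 8 weeks and 57.7% in control. No values within subclusters are given at 20%.

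**Figure D4:**
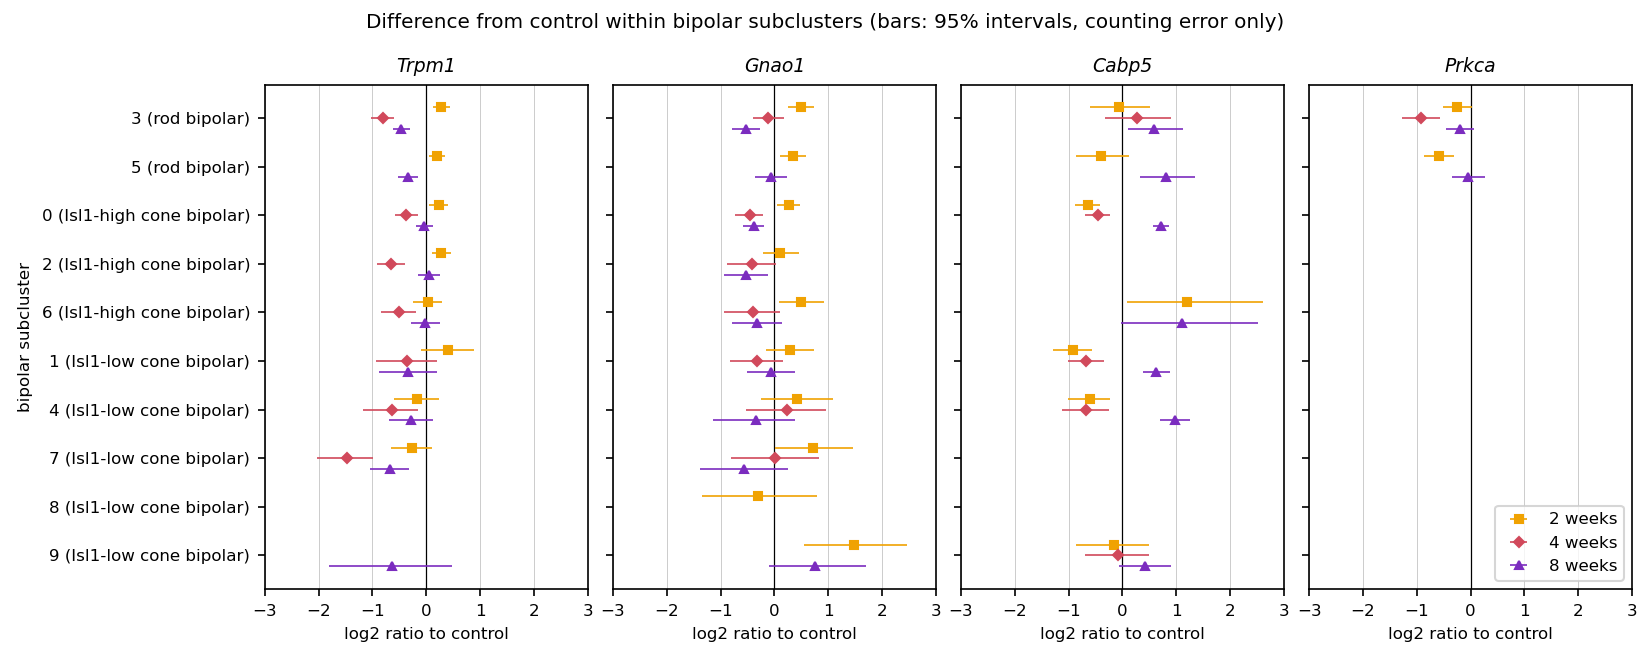
Log2 ratio to control of Trpm1, Gnao1, Cabp5 and Prkca within bipolar subclusters holding at least 50 cells in both libraries and 30 UMIs in the pair, with 95% intervals and 1 symbol per diabetic library. At 4 weeks Trpm1 lies between -1.48 and -0.35 and at 8 weeks Cabp5 lies between 0.41 and 1.11.

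Gnao1 lay above 0 in 9 of 10 subclusters at 2 weeks, with a median log2 ratio of 0.38 and 6 intervals above 0, beside 37.8% of genes higher in at least as many. At 8 weeks it lay below 0 in 8 of 9, with a median of -0.35 and 3 intervals below 0, beside 5.40% of genes lower in at least as many. In rod bipolar-like cells it stood at 670 CPM at 2 weeks and 359 CPM at 8 weeks, against 479 CPM in control, and with free RNA subtracted the 8-week log2 ratio there was 0.27 in place of -0.42. Grm6 and Gpr179 had fewer subclusters with enough UMIs. Gpr179 was below 0 in 4 of 4 at 4 weeks, with 3 intervals below 0, beside 13.9% of 2403 genes lower in each of the same 4, while Grm6 was below 0 in 2 of 4. Gng13, measured in 9 or 10 subclusters, had medians of 0.02, -0.10 and -0.04 at 2, 4 and 8 weeks.

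At the limit of 20% mitochondrial UMIs, bipolar cells numbered 227, 992, 270 and 301 at 0, 2, 4 and 8 weeks. The members past 2-fold were then 2 at 2 weeks (Pcp2 at 1.13 and Cabp5 at -1.28), 0 at 4 weeks and 2 at 8 weeks (Pcp2 at 1.28 and Prkca at 1.23). All genes used passed 2-fold in 4.22%, 5.76% and 4.01% of cases. Trpm1 at 4 weeks had a log2 ratio of -0.67 (-0.91 to -0.44) at this limit. Gpr179 turned to -0.17 at 2 weeks and 0.07 at 4 weeks, and Grm6 to -0.19 at 8 weeks. Rod bipolar-like cells numbered 9, 104, 21 and 40 and were not compared. They made up 3.96%, 10.5%, 7.78% and 13.3% of bipolar cells at this limit. No ratio at a fixed subcluster mix is given for it. At the 40% limit the fixed mix gave 8-week log2 ratios of 0.09 for Pcp2 and -0.04 for Prkca.

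Rods held transcripts of the members too, and these differed by library. Pcp2 stood at 609 CPM in rods at 8 weeks, against 95.5 CPM in control, a log2 ratio of 2.67 (2.55 to 2.80), and Gng13 at 253 against 89.3 CPM. These were the 2 of 3 members used in rods that were past 2-fold at 8 weeks, as were 1.02% of all genes used there. At 4 weeks 1 of the 3 was, Prkca lower, beside 5.21% of all genes used, and at 2 weeks 0, beside 11.8%. The rise at 8 weeks was not particular to Pcp2 and Gng13. Grm6, Trpm1, Gpr179, Gnao1 and Cabp5, not used in rods, also had their highest rod levels in that library. From control to 8 weeks, Grm6 went from 6.37 to 16.9 CPM in rods and Gpr179 from 2.58 to 8.94 CPM. Prkca in rods stood at 89.9, 49.8, 40.5 and 119 CPM at 0, 2, 4 and 8 weeks, with log2 ratios of -0.85, -1.15 (-1.36 to -0.95) and 0.41. Rods of the libraries lay in different clusters: cluster 0 held 6161 rods at 2 weeks and 172 in control, cluster 1 held 4549 at 4 weeks and 185 in control, and cluster 2 held 1403 at 8 weeks and 3404 in control. The median ratio of all genes used in rods was -0.29 at 2 weeks, and TMM scaling raises the 2-week rod ratios by 0.42. Bipolar cells made up 17.6% of all kept cells in control and 32.8% at 8 weeks. The part of these differences in the rod values was not tested. For each 100 Pcp2 UMIs, rods held 94.1, 30.05, 48.3 and 19.6 Prkca UMIs, against 2.99, 2.53, 1.49 and 2.90 in bipolar cells. Rod Prkca was thus in far higher proportion to Pcp2 than in bipolar cells, which was not particular to rods. Amacrine cells held 25.1 to 187 Prkca UMIs per 100 Pcp2 UMIs, Müller glia 6.17 to 40.5 and microglia 5.06 to 17.5. Amacrine cells were above rods at 2, 4 and 8 weeks and below them in control. Cones held 0 to 6.02. The source of Prkca in rods was not tested. For Grm6 the proportions were nearer, at 6.67, 1.55, 3.16 and 2.77 in rods and 6.68, 2.75, 4.95 and 4.54 in bipolar cells. The share of thinned rods with a Prkca UMI was 8.31%, 4.51%, 3.40% and 11.9%, against 0.86% to 1.81% of amacrine cells.

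The partners of the cascade at the dendrite were taken as a list of 16 genes, of which 13 were matched and 6 used in bipolar cells. Of these 6, 1 was past 2-fold higher at 2 weeks, 1 at 4 weeks and 0 at 8 weeks, and 0 lower. Over all genes used in bipolar cells, 3.03%, 1.79% and 0.489% were past 2-fold in either direction. The median log2 ratio of the 6 partners was 0.29, 0.25 and 0.10. The gene past 2-fold was Gnb1, a G protein beta subunit of rods, with log2 ratios of 1.62, 1.04 and 0.97 and a mean of 1812 CPM in rods. Gnb3, the beta subunit that ON bipolar cells use, stood at 1191, 1000 and 888 CPM in bipolar cells of the 3 diabetic libraries, against 800 CPM in control, with log2 ratios of 0.57, 0.32 and 0.15 at 2, 4 and 8 weeks. Rgs7, which switches Go off, lay above control in the 3 diabetic libraries by 0.73 (0.56 to 0.90), 0.26 (0.06 to 0.46) and 0.31 (0.14 to 0.49). Nyx, a surface protein needed for Trpm1 at the dendrite, lay at -0.26, -0.40 and -0.07. In rod bipolar-like cells 1 of 7 used partners was past 2-fold at 8 weeks, Ric8b, a chaperone of G protein alpha subunits, at 40.8 CPM against 12.7 CPM in control.

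The other lists give the setting. Their counts stand beside 3.03%, 1.79% and 0.489% of all genes used in bipolar cells past 2-fold at 2, 4 and 8 weeks. Of 10 photoreceptor-side partners 3 were used in bipolar cells, and 0 were past 2-fold at any time. Of 24 relatives of the members 9 were used, and 2 were past 2-fold higher at 2 weeks: Rgs9, the rod and cone regulator, at 1.98, and Prkce, a protein kinase C, at 1.11. Of 7 receptor genes of OFF bipolar cells 5 were used, and Grik1 was past 2-fold lower at 2 weeks, at 35.9 CPM against 76.0 CPM in control, where Isl1-low cells were 29.6% of bipolar cells against 44.3% in control. Of 11 abundant rod genes 9 were used, and 7, 3 and 1 were past 2-fold higher at 2, 4 and 8 weeks. Rod genes summed to 4102, 13269, 6472 and 6389 CPM in bipolar cells at 0, 2, 4 and 8 weeks. Of the other marker sums in bipolar cells, those of amacrine cells lay between 19.9 and 40.5 CPM and those of microglia between 15.8 and 31.3 CPM, and Müller markers between 403 and 680 CPM. Their part in the results on the members was not tested.

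Finally, genes with profiles like the members' were sought over 32 profiles, those of 8 cell groups in 4 libraries, as a description. The 8 with the highest Pearson r to the members' mean profile were Fibin (0.95), Ano3 (0.93), Qpct (0.93), Fam135b (0.92), Ghr (0.91), Gabrr2 (0.91), Stom (0.90) and Kcnk3 (0.90). The profiles of 1 library share its depth and its free RNA. Fibin averaged 187 CPM in rod bipolar-like cells, against 30.4 CPM in Isl1-high and 30.3 CPM in Isl1-low cells. Gabrr2, a subunit of the GABA receptors of bipolar cells, averaged 267, 450 and 146 CPM in the same groups. Among the members themselves r to the mean was highest for Trpm1 (0.97) and Gpr179 (0.97). It was lowest for Prkca (0.56) and Gnao1 (0.78), the members shared with rods and amacrine cells. Each member is part of that mean, which raises its r, so these values are not on a par with those of the 8 genes.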

How the data were processed

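Per the labels, dissociated retina was loaded on droplets with UMIs, and the deposited matrices hold whole-number UMI counts per gene and barcode; the submitters' processing notes name Cell Ranger 3.0.1 and Rnor_6.0. What those counts left out, and how reads of overlapping genes were counted, is not given in the sources used here. Every deposited barcode held at least 500 UMIs.

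From the counts, barcodes with at least 200 genes were kept, likely doublets were removed with Scrublet (the top 0.8% per 1000 barcodes), and cells with at most 40% mitochondrial UMIs were clustered with scanpy 1.11.5 in Python 3.11.15: 2000 variable genes without the members, their postsynaptic partners and mitochondrial genes, 30 principal components, 15 neighbours and Leiden clustering (leidenalg 0.10.2) at a resolution of 1.0, giving 24 clusters of 37219 cells. Bipolar cells were clustered again at 0.6. Classes were named from marker lists that hold no member. UMIs were summed per library and class, since cells are not replicates, and divided by the class total to give CPM. Log2 ratios had 0.5 added to each sum, with exact conditional binomial 95% intervals; shares have exact Clopper-Pearson 95% intervals. Differential tests were not made, with 1 library per group. TMM factors came from edgeR 4.0.16. The log2 ratios, the 2-fold rule and the intervals of ratios were tested on simulated counts of bipolar cells. Clustering, naming, thinning and the alternatives were not part of that test.

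The genes named are all members, from each list at most 5 used genes with the largest ratio in bipolar cells at any time, and the 8 most alike in profile; Ric8b, the subclusters described and the division by Isl1 were chosen after their values were seen. The members and lists were chosen with earlier results of these data known. Alternatives covered the mitochondrial limit, doublets, clustering, scaling, depth, free RNA, filters, thresholds and the mix of subtypes.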

Additional observations from a re-analysis of the deposited data

How the results depend on the processing

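The count of members highest in bipolar cells was 6 under most alternatives and 7 with CPM over nuclear-encoded UMIs, at a Leiden resolution of 2.0 and with free RNA subtracted. In bipolar cells, the count past 2-fold was 2 at 8 weeks at the 20% mitochondrial limit. With no mitochondrial limit it was 0 at 2 weeks and 1 at 4 weeks. With bipolar cells taken by marker UMIs, or at the control library's subtype mix, it was 1 at 2 weeks, and at its subcluster mix 0 at 2 weeks and 1 at 4 weeks. With cells thinned to 1000 UMIs it was 1 at 4 weeks. A threshold of 1.5-fold gave 5, 2 and 3 at 2, 4 and 8 weeks, and one of 3-fold gave 0 at 2 weeks. In rod bipolar-like cells at 4 weeks the count was 2 at 1.5-fold, 0 at 3-fold and 0 without subcluster 5, where Prkca stood at -0.92. Apart from the moved thresholds, the cause was not tested. Shares of all genes used are given above for the 20% limit and the subcluster mix, and not for the other alternatives or thresholds. The counts under those are therefore not read as results on the members.

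With free RNA subtracted, ratios in rod bipolar-like cells at 8 weeks changed sign: Trpm1 was 0.26, Gnao1 0.27, Gng13 0.20, Pcp2 0.73 and Prkca 0.60. Rod genes in these cells stood at 73.0% of their level in the whole library at 8 weeks, against 43.6% in control. In Isl1-high and Isl1-low cells at 8 weeks they stood at 13.1% and 17.2%. The part of this unlike share in the changes of sign was not tested. Without subcluster 3, 14 of 24 results in rod bipolar-like cells moved by more than counting error, with Prkca at 4 weeks at -1.61 and Trpm1 at -0.53. These are values of subcluster 5 alone, with 50, 372, 37 and 85 cells at 0, 2, 4 and 8 weeks. The 4-week ones thus rest on fewer cells than the minimum of 50 used elsewhere. TMM scaling lowered the log2 ratios in rod bipolar-like cells by 0.06, 0.15 and 0.15 at 2, 4 and 8 weeks. Prkca at 4 weeks lay between -1.72 and -0.92 there, and Trpm1 in bipolar cells between -0.71 and -0.60. Rod bipolar-like cells at 20% were not run, for want of control cells. No paired analysis was possible because each group has 1 library and no test was made, and no replicate could be left out.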
